A study of Mus musculus with 11 samples.

Results

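The fibroblast and extracellular matrix genes described here are a list of 42 mouse genes, taken by name. It holds fibrillar collagens, collagen VI, collagens of the fibril surface, basement membrane collagens, and matricellular and adhesive glycoproteins. It also holds proteoglycans, elastic fibre genes, enzymes and inhibitors of matrix remodelling, and mesenchymal cell genes. Each gene was read from the probe set that named its symbol alone and had the highest mean over the 9 whole-stomach arrays. This gave 40 of the 42 genes, out of 22180 genes with a symbol of their own. Fbn1, the fibrillin of microfibrils, had 0 probe sets listed, and the 2 probe sets of Loxl2, a collagen crosslinking oxidase, each named several genes.

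RNA from the stomachs of adult C57Bl/6 mice was measured on 11 Affymetrix arrays, and 9 of them held whole stomach. The groups were rapamycin plus tamoxifen (2 arrays), tamoxifen (2 arrays, 5 mg per 20 g mouse for 3 days), rapamycin (3 arrays, 0.6 mg per 20 g mouse for 10 days) and vehicle (2 arrays, sunflower oil), all by daily injection into the peritoneum, with the combined group given both drugs at these doses. The other 2 arrays held isolated parietal cells (1 array) and the stomach cells left without them (1 array). Whole-stomach arrays are labelled as biological replicates without saying whether 1 array is 1 mouse, so p-values measure the spread between these arrays. In whole tissue, fewer fibroblasts and less RNA per fibroblast cannot be told apart.

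Fibroblasts secrete procollagens that are hydroxylated and folded inside the cell, trimmed outside it, assembled into fibrils and crosslinked by lysyl oxidases. Small leucine-rich proteoglycans such as decorin bind the fibrils and help set their width, while metalloproteinases cut the matrix and TIMP proteins block those enzymes. In the stomach the matrix forms the lamina propria around the glands, the basement membrane under the epithelium and the connective tissue of the muscle wall. Rapamycin inhibits mTORC1, a kinase complex that controls growth and translation, and tamoxifen binds oestrogen receptors and is known in mice to cause loss of acid-secreting parietal cells at high dose.

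Values are log2 RMA expression, so 1 unit is a doubling on the array's scale. A level is set beside array medians or a filter only to show that it is low. Some libraries stood apart in markers of other cells. The mean of 11 squamous forestomach genes was 9.14 and 9.49 with rapamycin plus tamoxifen, 9.94 and 5.04 with tamoxifen, 9.90, 8.72 and 5.59 with rapamycin, and 5.32 and 4.89 with vehicle. It was low in both vehicle arrays, in tamoxifen replicate 2 and in rapamycin replicate 3. The mean of 9 parietal cell genes was 8.91 and 9.16 with the combination, 8.88 and 9.43 with tamoxifen, 10.38, 10.62 and 10.43 with rapamycin, and 10.29 and 10.35 with vehicle, lower in all 4 arrays given tamoxifen. The mean of 14 markers of fibroblast subtypes and gastric stroma lay between 6.33 and 6.71 in all 9 arrays. It was 6.71, 6.665 and 6.58 with rapamycin, above all other arrays, and 6.44 and 6.33 with vehicle, below all others. Of these 14 markers, 0 were called by limma in any comparison. For rapamycin against vehicle 5 had an unadjusted p under 0.05 (background 4.31% higher and 4.60% lower), with a median of 0.21. For tamoxifen against vehicle 3 did (background 6.15% higher), with a median of 0.13. The part of these stroma markers in the values below was not tested. The mean of 9 cell cycle genes was 8.25 and 8.13 with the combination, 8.50 and 8.65 with tamoxifen, 7.19, 7.13 and 7.14 with rapamycin, and 7.42 and 7.57 with vehicle. Of these 9 genes, 8 were called higher with tamoxifen against vehicle (background 1.72% in either direction). With tamoxifen averaged over rapamycin, 9 were called higher (background 3.24% higher). The part of these cell cycle genes in the tamoxifen values below was not tested.

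Across the 4 whole-stomach groups, 2 of 40 genes differed by limma's F test with adjusted p under 0.05, against a background of 3.31% of all genes. These were Timp1, an inhibitor of metalloproteinases (adjusted p = 0.0109), and Dcn, which encodes decorin (adjusted p = 0.0460). The next in order were Col1a1 (0.0595), Tnc (0.0786), Pdgfra (0.124) and Eln (0.126), none of which passed. A gene passes here when its adjusted p, taken over all 22180 genes, is under 0.05. Without single arrays the count of 2 ranged between 0 (without rapamycin replicate 1 or 3) and 5 (without tamoxifen replicate 1), and it was 1 without rapamycin replicate 2 or without either combined-treatment array.

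**Figure D1:**
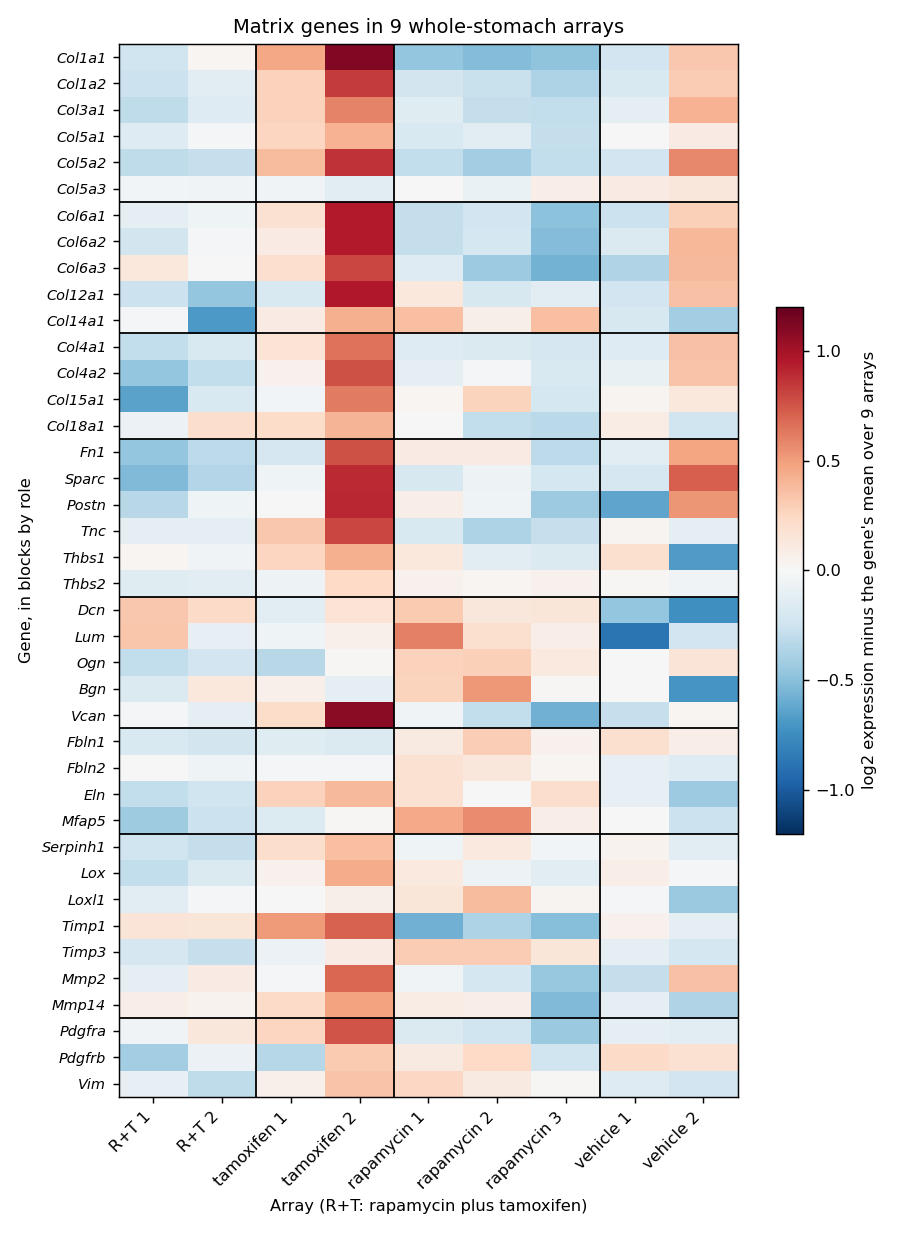
Each row is one of the 40 measured genes and each column one of the 9 whole-stomach arrays, grouped as rapamycin plus tamoxifen, tamoxifen, rapamycin and vehicle. Colour is the log2 value minus that gene's mean over the 9 arrays. The column of tamoxifen replicate 2 is the highest array for 30 of the 40 genes.

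Tamoxifen against vehicle gave 0 of 40 genes called by limma (background 1.72%, lowest adjusted p = 0.0707 for Timp1). The values still lay on one side: 36 of 40 stood above 0, against 46.4% of all genes, with a median of 0.33 where all genes had -0.02. An unadjusted p under 0.05 was reached by 13 genes, all higher with tamoxifen (background 6.15% higher). In 18 genes both tamoxifen arrays lay above both vehicle arrays (background 13.4%), and in 2 both lay below (13.9%). The size of this shift rested on 1 array, since the median was 0.18 without tamoxifen replicate 2 and 0.62 without tamoxifen replicate 1.

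Rapamycin against vehicle also gave 0 of 40 called by limma (background 0.0496%, lowest adjusted p = 0.206 for Dcn). Here the genes lay on both sides, 16 above 0 (46.8% of all genes) and 24 below (53.2%), with a median of -0.12. Without vehicle replicate 2 that median was -0.02, and without rapamycin replicate 1 it was -0.20. An unadjusted p under 0.05 was reached by 8 genes that were higher (background 4.31%) and 2 that were lower (4.60%). Rapamycin and vehicle arrays did not overlap in 11 of 40 genes that were higher (background 12.7%) and 11 that were lower (background 14.3%). In both directions this was a larger share than over all genes.

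Averaged over tamoxifen, rapamycin gave 0 of 40 called by limma (background 0.0496%, lowest adjusted p = 0.185), with 32 of 40 genes below 0 (54.0% of all genes) and a median of -0.29. An unadjusted p under 0.05 was reached by 16 genes that were lower (background 7.42%) and 2 that were higher (5.64%), Dcn and Lum. The median was -0.15 without tamoxifen replicate 2 and -0.37 without tamoxifen replicate 1.

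Rapamycin plus tamoxifen against tamoxifen alone gave 0 of 40 called by limma, which called 0 of all genes in this comparison (background 0%, lowest adjusted p of a listed gene = 0.814) while 1257 genes in all (5.67%) had an unadjusted p under 0.05. By unadjusted p under 0.05, 19 listed genes were lower with the combination (background 3.31% lower). The median was -0.46, and 36 of 40 stood below 0 (54.0% of all genes). In 32 genes both combined-treatment arrays lay below both tamoxifen arrays (background 20.3%), and in 2 they lay above (16.1%). The median was -0.21 without tamoxifen replicate 2 and -0.67 without tamoxifen replicate 1. Comparisons here share arrays, so their values for a gene are not independent of each other.

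Rapamycin plus tamoxifen against vehicle gave 1 gene of 40, Dcn, which was higher (background 0.410% higher), with a median of -0.13 (between -0.18 and -0.09 without single arrays) and 13 genes above 0 (45.9% of all genes). The groups did not overlap in 6 genes that were higher (19.3%) and 18 that were lower (24.8%). Against rapamycin alone, 1 gene of 40, Timp1, was higher with the combination (background 1.13% higher), with a median of -0.10, which was -0.18 without rapamycin replicate 3 and -0.05 without rapamycin replicate 1. Non-overlapping groups were seen there in 6 genes that were higher (18.7%) and 15 that were lower (20.4%). Tamoxifen averaged over rapamycin called Timp1 alone among the 40, higher (background 3.24% higher), with a median of 0.11 and 28 genes above 0 (45.7% of all genes). That median was 0.03 without tamoxifen replicate 2, 0.05 without vehicle replicate 1 and 0.22 without tamoxifen replicate 1.

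**Figure D2:**
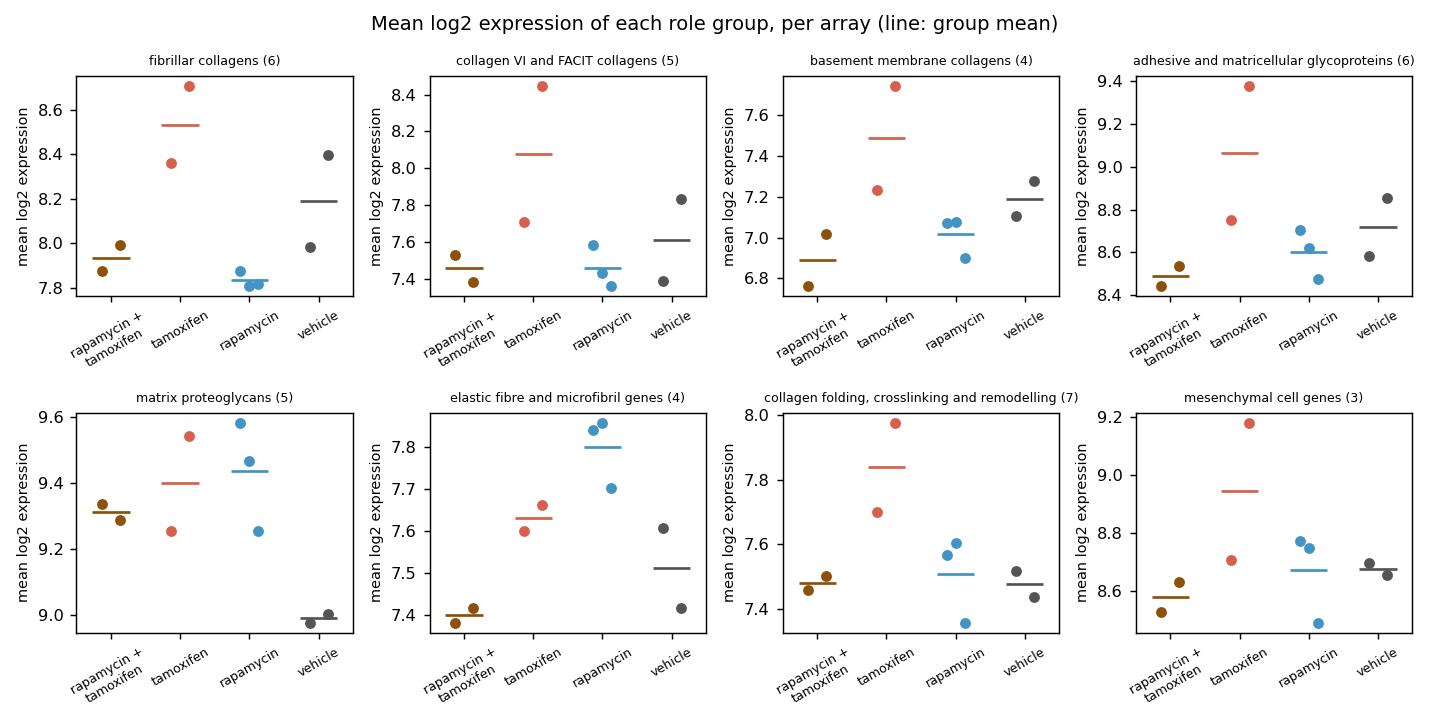
Each panel is a role group, with the number of measured genes in its title; points are arrays, horizontal lines are group means, and the vertical axis, which differs between panels, is the mean log2 value of the role's genes in that array. Groups run left to right as rapamycin plus tamoxifen, tamoxifen, rapamycin and vehicle. In the fibrillar collagen panel the 2 tamoxifen arrays are at 8.36 and 8.71, and in the proteoglycan panel the 2 vehicle arrays, at 8.98 and 9.001, are the lowest.

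Timp1, the secreted inhibitor of matrix metalloproteinases, rose with tamoxifen. It stood at 5.36 and 5.35 with rapamycin plus tamoxifen, 5.72 and 5.91 with tamoxifen, 4.63, 4.84 and 4.70 with rapamycin, and 5.26 and 5.10 with vehicle. Arrays given tamoxifen lay above their counterparts without it, in the presence and in the absence of rapamycin, with no overlap. Timp1 was also the dimmest of the 40 genes, with a mean of 5.21 over the 9 arrays. That is under the 5.71 used to leave out dim genes and near the array medians of 4.95 to 5.09. Averaged over rapamycin, tamoxifen raised it by 0.64 ± 0.10 (SE, 4 tamoxifen arrays, 5 without; adjusted p = 0.00583 in limma), a 1.56-fold change. This call was kept in 9 of 9 fits that each left out 1 array and in 14 of 14 alternatives that gave a value, with adjusted p between 0.00495 and 0.0373. With rapamycin in both groups the difference was 0.63 ± 0.13 (adjusted p = 0.0429), and without rapamycin it was 0.64 ± 0.14 (adjusted p = 0.0707), with an interaction of -0.0046 (adjusted p = 0.9999). The call with rapamycin in both groups was lost without any one of the 3 rapamycin or 2 combined-treatment arrays (adjusted p up to 0.312 over the alternatives). Macrophage markers were higher mainly with tamoxifen alone. Their 12-gene mean was 6.64 and 6.70 with the combination and 6.76 and 7.17 with tamoxifen. It was 6.63, 6.57 and 6.42 with rapamycin, and 6.54 and 6.49 with vehicle. Without rapamycin, the median tamoxifen difference of the 12 markers was 0.37. With rapamycin in both groups that median was 0.05. Their median interaction was -0.45, with 0 called. Of these 12 markers, 2 were called higher with tamoxifen averaged over rapamycin (background 3.24% higher). The part of these markers, and of the cell cycle genes given above, in the Timp1 result was not tested.

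Promoter sequence was at hand for 27 of the 42 genes, in RefSeq tables of assembly GRCm38.p6, and 3 are shown because their genes are described here in full: Timp1, which was called, and Col1a2 and Tnc, a fibrillar collagen gene and a matricellular gene, neither of them called. Each line gives the 150 bases before the first listed transcription start, 5′ to 3′ on the gene's strand.
Timp1: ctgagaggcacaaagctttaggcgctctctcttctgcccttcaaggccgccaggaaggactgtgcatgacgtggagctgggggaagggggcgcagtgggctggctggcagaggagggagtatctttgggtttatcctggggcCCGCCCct
Col1a2: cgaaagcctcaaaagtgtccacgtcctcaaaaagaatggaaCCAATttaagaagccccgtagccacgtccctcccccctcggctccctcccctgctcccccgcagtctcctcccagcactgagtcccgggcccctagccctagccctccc
Tnc: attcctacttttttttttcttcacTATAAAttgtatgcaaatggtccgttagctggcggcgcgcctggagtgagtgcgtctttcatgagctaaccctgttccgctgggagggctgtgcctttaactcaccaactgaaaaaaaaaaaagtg
Timp1 lies at chrX:20870016-20870165 on the + strand, Col1a2 at chr6:4505468-4505617 on the + strand and Tnc at chr4:64047016-64047165 on the - strand. Capitals mark a match to GGGCGG read on the opposite strand in Timp1 (positions -8 to -3 from the start), to CCAAT in Col1a2 (-109 to -105) and to TATAAA in Tnc (-126 to -121). With matches counted on both strands, GGGCGG was present in 12 of the 27 promoters (44.4%) and in 29.0% of 27025 promoters of the same length. CCAAT was present in 8 of 27 (29.6%, against 25.3%) and TATAAA in 4 of 27 (14.8%, against 8.08%). TGANTCA was present in 1 of 27, that of Col6a1 (3.7%, against 4.27%). A match is a description of these letters, and overlap between matches of different motifs was not checked.

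**Figure D3:**
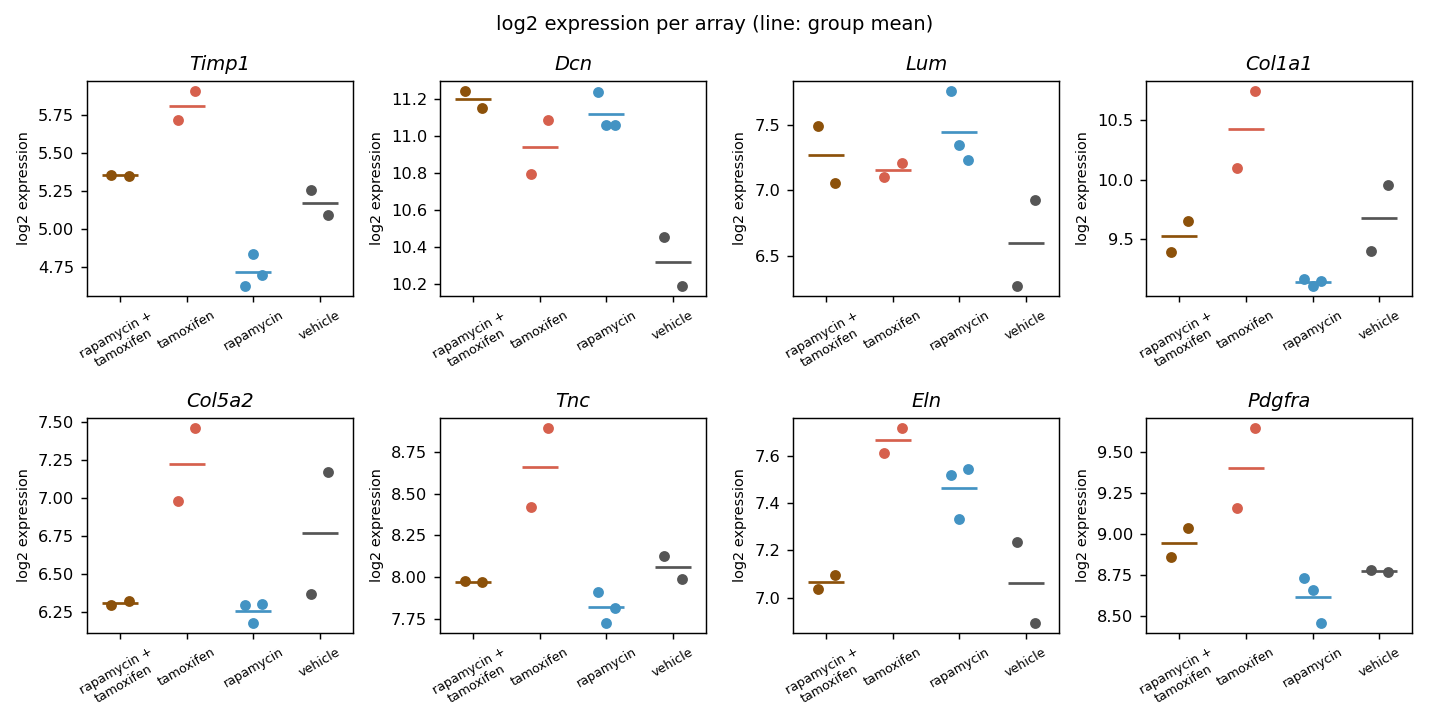
Log2 expression of Timp1, Dcn, Lum, Col1a1, Col5a2, Tnc, Eln and Pdgfra in each array, with points for arrays and horizontal lines for group means; each panel has its own vertical axis. Groups run left to right as rapamycin plus tamoxifen, tamoxifen, rapamycin and vehicle. Timp1 is higher in arrays with tamoxifen than in their counterparts without it, and Dcn is lowest in the 2 vehicle arrays.

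Among the 5 proteoglycan genes, Dcn was lowest in vehicle stomachs. It stood at 11.25 and 11.15 with rapamycin plus tamoxifen, 10.80 and 11.09 with tamoxifen, 11.24, 11.06 and 11.06 with rapamycin, and 10.46 and 10.19 with vehicle. All 7 treated arrays lay above both vehicle arrays. The combination raised it over vehicle by 0.88 ± 0.16 (SE, 2 arrays each, adjusted p = 0.0429), a 1.84-fold change. Rapamycin alone was 0.80 ± 0.15 higher than vehicle (adjusted p = 0.206) and tamoxifen alone 0.62 ± 0.16 (adjusted p = 0.115), neither called. The one call was kept in 2 of 9 fits that left out 1 array, those without a tamoxifen array, and was lost without any vehicle, rapamycin or combined-treatment array, while the change itself stayed between 0.74 and 1.01. It was kept in 6 of 16 alternatives in all, with adjusted p between 0.0184 and 0.329. Squamous markers were high in both arrays of the combination and low in both vehicle arrays. With the squamous marker mean in the fit, the change was 0.95 and no longer passed (adjusted p = 0.270). The mean of 6 adipose markers was 6.98 and 6.19 with the combination, 6.53 and 5.72 with tamoxifen, 7.43, 7.51 and 6.77 with rapamycin, and 6.00 and 5.82 with vehicle. Of these 6 markers, 5 had an unadjusted p under 0.05 for rapamycin against vehicle (background 4.31% higher and 4.60% lower). Their median was 0.86 with none called, and their part in the proteoglycan values was not tested.

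Lum, which encodes lumican, another leucine-rich proteoglycan of collagen fibrils, stood at 7.49 and 7.05 with the combination, 7.10 and 7.21 with tamoxifen, 7.76, 7.34 and 7.23 with rapamycin, and 6.27 and 6.92 with vehicle. All 7 treated arrays again lay above both vehicle arrays, and the difference of rapamycin from vehicle was 0.84 ± 0.24 (adjusted p = 0.407). It was 0.52 without vehicle replicate 1 and 1.17 without vehicle replicate 2. Bgn, for biglycan, was 0.63 ± 0.23 higher with rapamycin than with vehicle (adjusted p = 0.507), with 1 vehicle array at 11.89 and the other at 11.19. Ogn, for osteoglycin, lay the other way with the combination, at 10.17 and 10.23 against 10.46 and 10.62 with vehicle (adjusted p = 0.389). Vcan, for the large proteoglycan versican, was 0.78 ± 0.28 higher with tamoxifen than with vehicle (adjusted p = 0.305), most of it in tamoxifen replicate 2, at 7.15, where replicate 1 was at 6.29. For rapamycin against vehicle the median of the 5 genes was 0.63, while that of the 6 fibrillar collagens was -0.37.

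The 6 fibrillar collagen genes, which build the load-bearing fibrils of connective tissue, gave no call in any comparison in limma. Col1a1, the main chain of type I collagen, stood at 9.39 and 9.66 with rapamycin plus tamoxifen, 10.10 and 10.75 with tamoxifen, 9.17, 9.11 and 9.15 with rapamycin, and 9.40 and 9.95 with vehicle. Both tamoxifen arrays were above the other 7, and the 3 rapamycin arrays were the lowest. The combination was lower than tamoxifen alone, with a difference of -0.90 ± 0.24 (unadjusted p = 0.00517, adjusted p = 0.814). It was -0.57 without tamoxifen replicate 2 and -1.22 without tamoxifen replicate 1. Averaged over tamoxifen, the rapamycin difference was -0.72 ± 0.16 (adjusted p = 0.223).

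The other fibril-forming chains followed the same order of group means, apart from Col5a3. Col1a2, the partner chain of type I collagen, stood at 8.71 and 8.85 with the combination, 9.25 and 9.81 with tamoxifen, 8.75, 8.70 and 8.60 with rapamycin, and 8.79 and 9.28 with vehicle. Col3a1, the collagen of fine reticular fibrils, stood at 9.20 and 9.36 with the combination, 9.78 and 10.11 with tamoxifen, 9.37, 9.22 and 9.21 with rapamycin, and 9.40 and 9.93 with vehicle. In both genes 1 vehicle array reached the range of the tamoxifen arrays and the other was close to the rapamycin arrays. Col5a1 and Col5a2, chains of the type V collagen that nucleates fibrils, differed by -0.42 ± 0.14 and -0.91 ± 0.26 between the combination and tamoxifen alone (adjusted p = 0.814 for each). For Col5a2 the tamoxifen arrays were at 6.98 and 7.46 and the vehicle arrays at 6.37 and 7.17, so 1 vehicle array lay between the 2 tamoxifen arrays and the other below both. Col5a3 kept to between 6.22 and 6.48 in all 9 arrays (F-test adjusted p = 0.724).

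For the combination against tamoxifen alone, 5 of the 6 fibrillar genes had an unadjusted p under 0.05, all lower (background 3.31% lower), with a median of -0.71. Averaged over tamoxifen, rapamycin gave values below 0 for 6 of 6 (54.0% of all genes), with a median of -0.54. Rapamycin against vehicle gave 6 of 6 below 0 as well (53.2% of all genes), with a median of -0.37. Only Col1a1 reached an unadjusted p under 0.05 there (0.0392, background 4.60% lower). The mean of the 6 genes was 7.88 and 7.99 with the combination, 8.36 and 8.71 with tamoxifen, 7.87, 7.81 and 7.82 with rapamycin, and 7.98 and 8.40 with vehicle.

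Collagen VI forms beaded filaments around cells, and collagens XII and XIV sit on the surface of fibrils. Their 5 genes gave no call in limma. Col6a1, Col6a2 and Col6a3 were higher with tamoxifen than with vehicle in value (median of the 5 genes 0.49), but 1 tamoxifen array carried most of it. Col6a2, among the most variable genes here (pooled SD 0.35), stood at 8.47 and 8.66 with the combination, 8.78 and 9.64 with tamoxifen, 8.40, 8.48 and 8.17 with rapamycin, and 8.51 and 9.09 with vehicle. Col12a1 had 6.72 and 7.86 in the 2 tamoxifen arrays, a gap wider than any difference between its group means (F-test adjusted p = 0.570). Col14a1 stood at 5.94 and 5.28 with the combination, 6.06 and 6.39 with tamoxifen, 6.32, 6.04 and 6.33 with rapamycin, and 5.78 and 5.55 with vehicle. Each drug alone lay above vehicle in Col14a1, and both combined-treatment arrays lay below either drug alone.

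The basement membrane collagens gave no call in limma. Col4a1 and Col4a2, the chains of the common type IV network, differed by -0.65 ± 0.21 and -0.79 ± 0.24 between the combination and tamoxifen alone (adjusted p = 0.814 for each). Col4a1 stood at 7.37 and 7.48 with the combination, 7.83 and 8.32 with tamoxifen, 7.51, 7.49 and 7.46 with rapamycin, and 7.52 and 8.02 with vehicle. The vehicle arrays of Col4a1 lay on either side of tamoxifen replicate 1. Col15a1, whose product bridges the basement membrane and fibrils, had a difference of -0.71 ± 0.25 between the combination and tamoxifen (adjusted p = 0.814). Col18a1, the source of endostatin, kept to between 6.33 and 7.07 in all 9 arrays. Averaged over tamoxifen, 4 of 4 of these genes were below 0 with rapamycin (54.0% of all genes), with a median of -0.42. Endothelial markers, a cell type that makes basement membrane, had an 11-gene mean of 6.55 and 6.70 with the combination, 6.74 and 6.85 with tamoxifen, 7.18, 7.21 and 6.96 with rapamycin, and 7.03 and 6.85 with vehicle. Of these 11 genes, 0 had an unadjusted p under 0.05 for the combination against tamoxifen alone (median -0.13). For rapamycin averaged over tamoxifen it was also 0 (median -0.03). For the combination against rapamycin alone their median was -0.47, where all genes had -0.01, and 1 was called lower (background 1.32% lower). With tamoxifen averaged over rapamycin the median was -0.25 and 2 were called lower (background 2.61% lower). The part of these markers in the basement membrane values was not tested.

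Of the 6 adhesive and matricellular genes, which encode proteins that tune how cells attach to the matrix, none was called by limma in any comparison. Tnc, for tenascin-C, came nearest. It stood at 7.98 and 7.97 with rapamycin plus tamoxifen, 8.42 and 8.90 with tamoxifen, 7.91, 7.73 and 7.82 with rapamycin, and 8.13 and 7.99 with vehicle. Both tamoxifen arrays were above the other 7. Tnc was 0.60 ± 0.17 higher with tamoxifen than with vehicle (adjusted p = 0.170) and differed by -0.68 ± 0.17 between the combination and tamoxifen alone (adjusted p = 0.814). Without tamoxifen replicate 2 these differences were -0.45 for the combination against tamoxifen alone and 0.36 for tamoxifen against vehicle.

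Postn, Sparc and Fn1, for periostin, the collagen-binding protein SPARC and fibronectin, had the widest spread between arrays of one group, together with Col12a1 and Col6a2. Their pooled SDs were 0.51, 0.42 and 0.39, where the median over the 40 genes was 0.23. Postn stood at 9.38 and 9.66 with the combination, 9.71 and 10.62 with tamoxifen, 9.79, 9.66 and 9.28 with rapamycin, and 9.08 and 10.24 with vehicle, so the 2 vehicle arrays covered most of the range. Sparc stood at 9.40 and 9.57 with the combination, 9.87 and 10.82 with tamoxifen, 9.73, 9.86 and 9.71 with rapamycin, and 9.73 and 10.64 with vehicle. In Sparc the combination was below the other 7 arrays. Thbs1, for thrombospondin-1, had 8.22 and 7.34 in the vehicle arrays, and Thbs2 kept to between 6.44 and 6.82 (F-test adjusted p = 0.710).

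Elastic fibre genes had the lowest median of the role groups for the combination against rapamycin alone, -0.37, where all genes had -0.01. Their values lay between -0.71 and -0.14, and none was called by limma. Eln, for elastin itself, stood at 7.04 and 7.09 with rapamycin plus tamoxifen, 7.61 and 7.72 with tamoxifen, 7.52, 7.33 and 7.54 with rapamycin, and 7.23 and 6.89 with vehicle. Each drug alone lay above both vehicle arrays, while the combination lay between the 2 vehicle arrays. Its interaction was -1.0 ± 0.21 (unadjusted p = 0.00117, adjusted p = 0.9999). Mfap5, a microfibril-associated glycoprotein, stood at 6.70 and 6.87 with the combination, 6.96 and 7.14 with tamoxifen, 7.58, 7.69 and 7.21 with rapamycin, and 7.13 and 6.87 with vehicle, with a difference of -0.71 ± 0.17 between the combination and rapamycin alone (adjusted p = 0.0816). Fbln1, for fibulin-1, kept to 8.83 to 8.91 in the 4 arrays with tamoxifen and 9.10 to 9.34 in the 5 without it, with no overlap. The averaged tamoxifen difference of Fbln1 was -0.32 (adjusted p = 0.0898). Fbln2 had an F-test adjusted p of 0.607. Smooth muscle markers moved alongside: their 11-gene mean was 9.52 and 9.37 with the combination against 10.01, 9.96 and 9.90 with rapamycin. Of these 11 markers, 2 were called lower (background 1.32% lower), and their part was not tested.

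Besides Timp1, the genes of collagen folding, crosslinking and remodelling gave no call in limma. Serpinh1, for the collagen chaperone HSP47, stood at 8.13 and 8.09 with rapamycin plus tamoxifen, 8.58 and 8.73 with tamoxifen, 8.31, 8.49 and 8.33 with rapamycin, and 8.41 and 8.24 with vehicle. The tamoxifen arrays were the highest and those of the combination the lowest, a difference of -0.55 ± 0.14 (adjusted p = 0.814). Timp3, the TIMP that is held in the matrix, stood at 8.14 and 8.06 with the combination, 8.27 and 8.44 with tamoxifen, 8.65, 8.65 and 8.49 with rapamycin, and 8.24 and 8.13 with vehicle, highest with rapamycin alone. It was 0.41 ± 0.13 higher with rapamycin than with vehicle (adjusted p = 0.436) and differed by -0.49 ± 0.13 between the combination and rapamycin (adjusted p = 0.0941). Timp1 and Timp3 thus lay in opposite directions for rapamycin against vehicle in value, Timp1 at -0.46 ± 0.13 (adjusted p = 0.413), though neither passed. Lox, the lysyl oxidase that starts collagen crosslinking, had a difference of -0.48 ± 0.17 between the combination and tamoxifen (adjusted p = 0.814), and its relative Loxl1 was 0.42 ± 0.16 higher with rapamycin than with vehicle (adjusted p = 0.527). Mmp14, a membrane-bound collagenase, was 0.60 ± 0.22 higher with tamoxifen than with vehicle (adjusted p = 0.335), and Mmp2, the gelatinase it activates, had an F-test adjusted p of 0.567.

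The mesenchymal cell genes gave no call in limma. Pdgfra, a growth factor receptor of fibroblasts, stood at 8.86 and 9.03 with rapamycin plus tamoxifen, 9.16 and 9.65 with tamoxifen, 8.73, 8.66 and 8.46 with rapamycin, and 8.78 and 8.77 with vehicle. All 4 arrays with tamoxifen lay above all 5 without it, and the averaged tamoxifen difference was 0.48 (adjusted p = 0.0618). That value passed in 4 of 15 alternatives, with adjusted p between 0.0207 and 0.223. Pdgfrb, the related receptor of pericytes and smooth muscle, had an F-test adjusted p of 0.666, and Vim, for the intermediate filament vimentin, was 0.40 ± 0.16 higher with tamoxifen than with vehicle (adjusted p = 0.382).

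Because the design crosses the drugs, the tamoxifen difference can be set side by side with and without rapamycin. Its interaction, the difference between the 2 differences, gave 0 of 40 called by limma, as it did over all genes (background 0%), while 627 genes in all (2.83%) had an unadjusted p under 0.05. Among the 40, 39 stood below 0 (51.8% of all genes), with a median of -0.42, and 7 had an unadjusted p under 0.05, all below 0 (background 1.56%). In 7 of 40 genes (17.5%) both tamoxifen arrays lay above both vehicle arrays and both combined-treatment arrays lay below all 3 rapamycin arrays, where 1.46% of all genes had groups apart in opposite directions. They were Col14a1, Fbln2, Eln, Serpinh1, Loxl1, Timp3 and Vim, with values of -0.62 to -0.14 with rapamycin and 0.11 to 0.60 without it. The median interaction was -0.13 without tamoxifen replicate 2 and -0.63 without tamoxifen replicate 1.

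**Figure D4:**
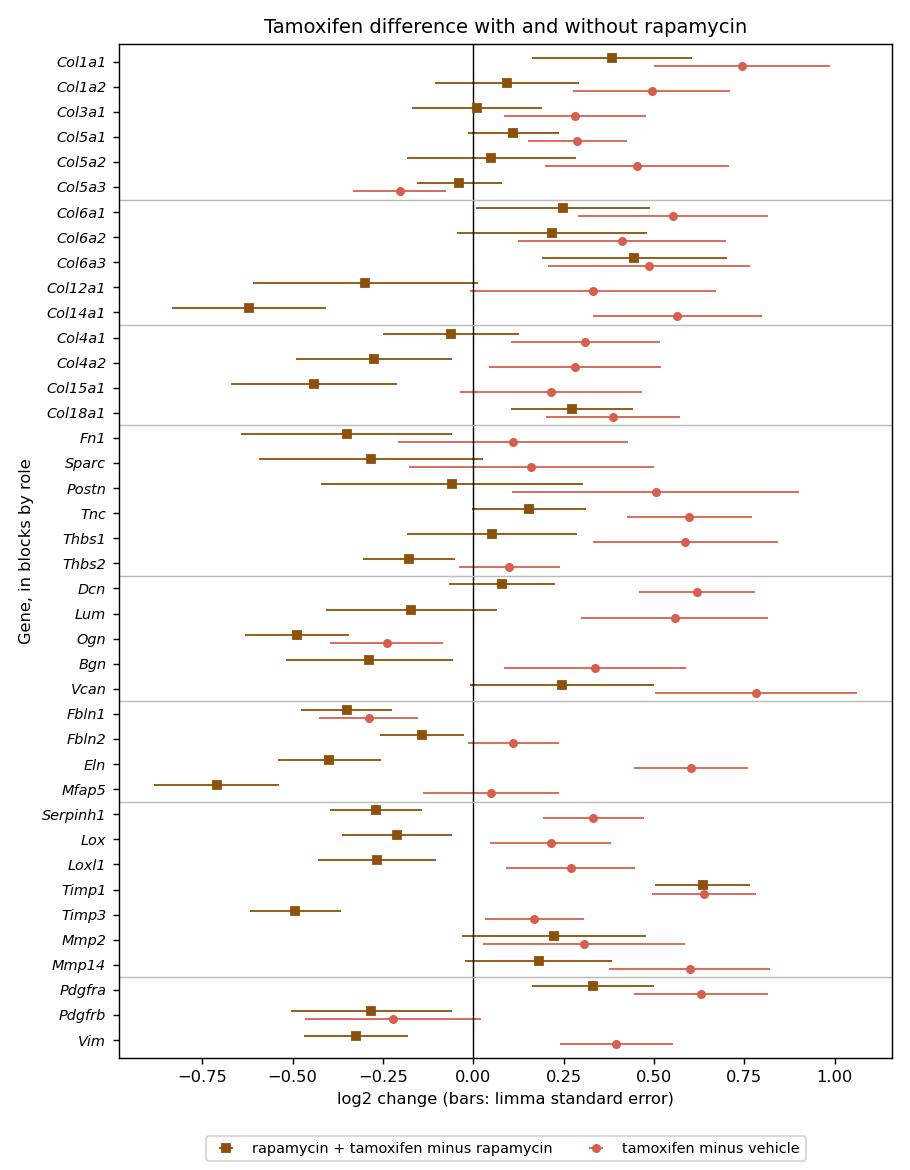
Each row is one of the 40 genes, in blocks by role, and the horizontal axis is the log2 difference, with limma standard errors as bars. Squares are rapamycin plus tamoxifen minus rapamycin and circles are tamoxifen minus vehicle. For Timp1 the square and circle lie together at 0.63 and 0.64, while for Eln, Col14a1 and Timp3 the squares lie below 0 and the circles above it.

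Tamoxifen replicate 2 was the highest of the 9 arrays for 30 of the 40 genes. Its values exceeded those of tamoxifen replicate 1 in 36 of 40, by a median of 0.34. Pairs of arrays in the other groups differed by medians of 0.07 with the combination, -0.05 between rapamycin replicates 2 and 1, and 0.01 with vehicle. Single genes differed by -0.16 to 1.14 between the tamoxifen arrays and by -0.88 to 1.17 between the vehicle arrays, where 20 of 40 were above 0. Tamoxifen replicate 2 had a squamous marker mean of 5.04 against 9.94 in tamoxifen replicate 1 and the highest macrophage marker mean, 7.17. The lowest array was combined-treatment replicate 1 for 10 genes and rapamycin replicate 3 for another 10. What sets tamoxifen replicate 2 apart was not tested.

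Genes that act with these members were read from separate lists. Of 13 measured collagen processing enzymes, 3 fell with the combination against rapamycin alone (limma, background 1.32% lower). P4ha3, a collagen prolyl hydroxylase subunit, stood at 5.68 and 5.46 with the combination, 5.59 and 5.53 with tamoxifen, 7.31, 7.20 and 6.57 with rapamycin, and 6.08 and 5.66 with vehicle. Its difference between the combination and rapamycin was -1.45 ± 0.23 (adjusted p = 0.0148). P4ha2, another such subunit, stood at 6.45 and 6.84 with the combination, 6.72 and 6.89 with tamoxifen, 7.61, 7.83 and 7.74 with rapamycin, and 7.55 and 7.48 with vehicle, with no overlap between arrays given tamoxifen and the rest. Averaged over rapamycin, P4ha2 fell by 0.90 ± 0.11 with tamoxifen (adjusted p = 0.00236), a call kept in 9 of 9 fits without 1 array. Plod1, a collagen lysyl hydroxylase, had a difference of -0.66 between the combination and rapamycin (adjusted p = 0.0426), a call kept in only 2 of 9 such fits, those without a tamoxifen array. The P4ha3 call against rapamycin alone was lost without rapamycin replicate 1 or 2 or either combined-treatment array (change between -1.68 and -1.31). That of P4ha2 against rapamycin alone was lost without rapamycin replicate 2 or combined-treatment replicate 1 (change between -1.28 and -0.89).

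Of 17 measured laminins, nidogens and other basement membrane genes, Col4a3 fell and Lama5 rose with tamoxifen averaged over rapamycin, where 2.61% of all genes were called lower and 3.24% higher. Col4a3, a chain of the specialised type IV network, stood at 5.07 and 5.00 with the combination, 4.61 and 4.75 with tamoxifen, 5.79, 5.61 and 5.86 with rapamycin, and 5.87 and 5.78 with vehicle. These are low values, and Col4a3 falls among the dim genes (mean under 5.71). The tamoxifen difference from vehicle was -1.15 ± 0.14 (adjusted p = 0.0094, background 0.784% lower), and the call was lost without vehicle replicate 1 (differences between -1.22 and -1.07 without 1 array). Averaged over rapamycin, the difference was -0.93 (adjusted p = 0.000882), kept in 9 of 9 fits without 1 array. Its calls for the combination against vehicle (adjusted p = 0.0392, background 0.735% lower) and against rapamycin alone (adjusted p = 0.0254, background 1.32% lower) were lost in some of these fits, kept in 2 and 4 of 9, with changes between -0.83 and -0.74 and between -0.78 and -0.66. Lama5, a laminin alpha chain of epithelial basement membranes, stood at 7.47 and 7.18 with the combination, 7.34 and 7.50 with tamoxifen, 6.68, 6.74 and 6.53 with rapamycin, and 6.83 and 6.60 with vehicle. It was 0.69 ± 0.11 higher with tamoxifen averaged over rapamycin (adjusted p = 0.00676), also kept in 9 of 9.

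Of 13 matrix receptors, Itga2, the collagen-binding integrin alpha 2 chain, was called higher with tamoxifen averaged over rapamycin (1.13 ± 0.25, adjusted p = 0.0305, background 3.24% higher). Of 18 other proteases and inhibitors, Mmp12, the macrophage elastase (1.68 ± 0.34, adjusted p = 0.0222), and Plat, tissue plasminogen activator (0.63 ± 0.14, adjusted p = 0.0285), were called higher in that comparison, against the same 3.24%. Mmp12 stood at 6.44 and 6.19 with the combination, 6.53 and 7.95 with tamoxifen, 4.91, 5.24 and 5.69 with rapamycin, and 4.31 and 5.54 with vehicle. These 3 calls were kept in 3, 4 and 3 of 9 fits without 1 array, with changes of 0.85 to 1.42 for Itga2, 1.32 to 2.03 for Mmp12 and 0.50 to 0.76 for Plat. Itga2 and Mmp12 lost the call without vehicle replicate 1, rapamycin replicate 1 or 2 or either combined-treatment array, Itga2 also without rapamycin replicate 3, and Plat without vehicle replicate 2, tamoxifen replicate 2, rapamycin replicate 2 or 3 or either combined-treatment array. Of 18 TGF-beta ligands, receptors, SMADs and targets, the pathway best known for inducing matrix genes, 0 were called by limma in any comparison. For tamoxifen against vehicle 3 had an unadjusted p under 0.05 (background 6.15% higher), with a median of 0.05. For rapamycin against vehicle 6 did (background 4.31% higher and 4.60% lower), with a median of 0.17. Tgfb3 (0.70 ± 0.17, adjusted p = 0.333) and Tgfb2 (0.45 ± 0.14, adjusted p = 0.454) had the smallest p there, both higher with rapamycin. Ccn2, a TGF-beta target, was 0.81 ± 0.24 higher with tamoxifen than with vehicle (adjusted p = 0.180). Its interaction was -1.14 ± 0.32 (adjusted p = 0.9999).

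The cell fractions were read as values alone. Array medians over all probe sets were 3.67 and 3.68 in the fractions and 4.95 to 5.09 in whole stomach, so levels in the fractions were not compared with those in whole stomach. In the stomach cells left without parietal cells, Col1a1 was at 4.08 and Col3a1 at 3.78. Their isolation was not described in the labels used.

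**Figure D5:**
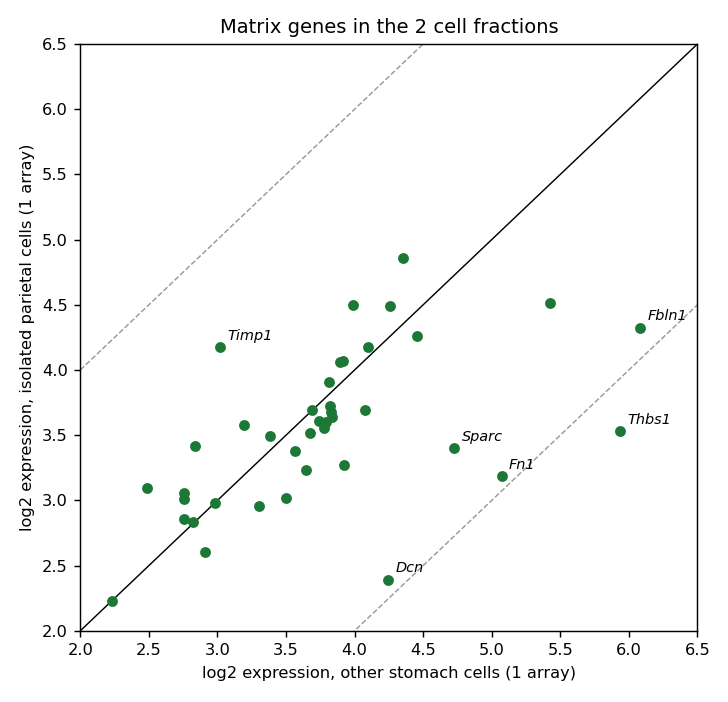
Each point is one of the 40 genes, placed by its log2 value in the parietal cell array (vertical) and in the array of other stomach cells (horizontal), with 1 array per fraction and so no error bar. The solid line marks equal values and the dashed lines a difference of 2 log2 units. Most points lie near the diagonal, and Thbs1, at 3.53 and 5.94, lies farthest from it.

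Parietal cells and the other stomach cells had 1 array each, so no test was made. The median difference, parietal minus other, was -0.11, and 34 of 40 genes (85.0%) were within 1 unit, as were 87.2% of all genes. Only Thbs1 was at least 2 units apart, at -2.41 (background 3.35%). Fn1 (-1.89), Dcn (-1.85), Fbln1 (-1.76) and Sparc (-1.33) followed, all lower in parietal cells. Timp1 lay the other way, at 4.17 in parietal cells and 3.02 in the other cells. Lum, Vcan and Col4a2 had the same value in both arrays (2.2276, 2.9785 and 3.6927). The median of the 40 genes was 3.54 in parietal cells and 3.78 in the other cells, near the array medians of 3.67 and 3.68. Many of these values are thus low, and ties or small differences between them are not read as a result.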

How the data were processed

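Total RNA of 9 whole-stomach samples and 2 cell fractions was hybridised to Affymetrix arrays. RNA was purified on RNeasy columns, amplified with RiboAmp HS and labelled with biotin, per the labels' protocols. The authors deposited RMA values on the log2 scale, with Partek named in the submitters' processing notes; their versions, settings and genome build are not stated there, and signal over background was not used here. RMA pulls low values together, which can shrink differences of dim genes.

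Of 41345 probe sets, 23521 named 1 symbol, 1814 several and 16010 none. The brightest probe set of each gene gave 22180 genes, of which 40 of the 42 listed were found, all with symbols equal to RefSeq's by gene ID. Of these 40, 35 had 1 probe set and 5 had several. The platform's annotation can be old. The 9 whole-stomach arrays were fitted in limma 3.58.1 (R 4.3.3) with a mean per group and a shared spread (5 residual degrees of freedom, prior 3.86). P-values were adjusted by Benjamini-Hochberg over all genes at 0.05. The number of arrays limits the precision. The script was tested on simulated data. Figures were drawn with matplotlib 3.10.9.

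Alternatives were a further quantile normalization, a mean over each gene's probe sets, leaving out dim genes (mean under 5.71), trend and robust eBayes, the squamous marker mean as a covariate, the replicate number as a block, only the groups compared, and leaving out each array in turn. Members and lists were chosen with earlier results of these data known. Named genes were those called, the smallest p-values up to 4 per comparison, the smallest and highest F-test p per role, the 5 widest spreads, and for other lists the called genes. The remaining members are named to account for the whole list.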

Additional observations from a re-analysis of the deposited data

How the results depend on the processing

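Timp1 with tamoxifen averaged over rapamycin was called in every alternative that gave a value; leaving out dim genes removed Timp1 itself. Over the named genes 604 alternative values kept their side of the threshold, 74 lost it and 14 gained it, and none turned its sign. In many of these fits the sign could not turn. Trend and robust eBayes, fitting only the groups compared and leaving out an array outside the comparison keep the log2 change as it was. The named genes were also picked in part for small p-values, so the lack of sign changes says little. For the counts of listed genes, leaving out dim genes gave 2 with tamoxifen against vehicle, Dcn and Eln, both higher. It gave 2 when the combination was set against rapamycin, Mfap5 and Timp3, both lower, while Timp1 was no longer in the fit. For tamoxifen averaged it gave 5. Quantile normalization gave 2 for the combination against rapamycin and 3 for tamoxifen averaged. Trend and robust eBayes gave 2 for tamoxifen averaged and 4 for the F test. The squamous covariate gave 0 for the combination against vehicle and against rapamycin, 1 for the F test and a median of 0.047 for the combination against vehicle, where the reported median was -0.13. Fitting only the groups compared gave 0 for the combination against vehicle. The causes were not tested.

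Deviations of same-numbered arrays (replicates 1 and 2) correlated at 0.56 between vehicle and tamoxifen. In the other pairs of groups the correlations lay between -0.112 and 0.241. The fit reported here did not pair samples by replicate number, and whether vehicle and tamoxifen arrays are paired was not tested. With the replicate block, 0 listed genes were called for the combination against vehicle, 0 for the combination against rapamycin and 0 by the F test.

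Leaving out 1 array, where the lone array of a group is assumed to vary like the others, gave these ranges. Listed genes called were 0 to 1 for the combination against vehicle and against rapamycin, 1 to 5 for tamoxifen averaged and 0 to 5 by the F test. Medians were 0.18 to 0.62 for tamoxifen against vehicle, -0.20 to -0.02 for rapamycin against vehicle, -0.18 to -0.09 for the combination against vehicle, -0.18 to -0.05 for the combination against rapamycin, 0.03 to 0.22 for tamoxifen averaged, -0.67 to -0.21 for the combination against tamoxifen, -0.63 to -0.13 for the interaction and -0.37 to -0.15 for rapamycin averaged. With 2 or 3 arrays a group, differences of the size seen in most listed genes did not pass adjustment.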

Other observations

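Of the 40 genes, 5 had further, dimmer probe sets. In Col1a2 the other probe set gave -0.80 for the combination against tamoxifen alone, where the one used gave -0.75, and 0.47 against 0.49 for tamoxifen against vehicle. In Col6a1 the other probe set gave -0.07 where the one used gave -0.65 for the combination against tamoxifen alone, and 0.14 where the one used gave -0.35 for rapamycin against vehicle. The dim probe set of Col5a1, with a mean of 4.70 over the 9 arrays, gave 0.01 where the one used gave -0.42 for the combination against tamoxifen alone. In Vim the values for tamoxifen against vehicle were 0.03 in the other probe set and 0.40 in the one used. In Bgn the values were -0.01 in the other probe set and 0.0047 in the one used for the combination against tamoxifen alone. Which probe set of Col6a1, Col5a1 or Vim follows the gene more closely was not tested.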
